A study of Homo sapiens with 60 samples.

Results

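At the highest dose, 500 µg/mL, the 2 herbal formulas of the series were set against extracts of 2 single herbs in HepG2 cells, an established human liver carcinoma line. The formula side held 5 libraries, 3 of Sibjeondaebo-tang (SDT) and 2 of Palmul-tang (PMT), both extracted with water. The herb side held 6 libraries, 3 of Atractylodis Rhizoma and 3 of Panax ginseng, both extracted with 70% ethanol. These 11 libraries, of 60 in the series, were chosen by extract and dose alone, and the same extracts at 20 µg/mL (Low, 11 libraries) and 100 µg/mL (Medium, 11 libraries) served to show which differences depended on dose. All cultures were sampled after 24 h, and 3 DMSO cultures formed the vehicle group. DMSO in the vehicle is 0.1% by the sample labels and 2% by the series text, and the DMSO content of the treated cultures is not given in the sources used here. Every formula was a water extract, every single herb an ethanol extract, and the sample descriptions carry set code 8 for the formulas, 9 for Atractylodis and 10 for ginseng. Solvent, set code and composition therefore cannot be told apart in the comparison at High. The vehicle libraries carry a code of their own, C1, so a level set beside vehicle also crosses codes. Each change from Low to High was measured within 1 extract, 1 solvent and 1 set code, so an offset equal at both doses cancels. Where that change differed between the sides, solvent, set code and composition again cannot be told apart. The labels do not say whether replicates were separate cultures, so a p-value here speaks only of the spread among the libraries, which may be technical.

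SDT and PMT are traditional Korean tonic formulas. Their usual recipes contain ginseng, Atractylodes, Poria and licorice beside angelica and peony, but the labels list no ingredients. Several response systems of liver cells recur among the genes described. Bone morphogenetic proteins (BMPs) signal through SMAD proteins to HAMP, which encodes the iron hormone hepcidin, and to the ID genes and SMAD7. The aryl hydrocarbon receptor (AhR) is a ligand-activated transcription factor that switches on CYP1A1 and ALDH3A1. NRF2 is released by electrophiles and oxidants and drives aldo-keto reductases, glutathione synthesis and quinone reduction.

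The libraries held between 19057230 and 33233215 counts, and 16284 genes had enough counts to be tested. All 9 hepatocyte lineage markers were detected, with summed levels of 57800 to 60400 CPM (counts scaled to a common library size) in the formula libraries and 56900 to 61700 CPM in the herb libraries at High. COL1A2, POSTN, TEK, CLEC14A, PTPRC, CD3E, CD163 and TYROBP, which mark fibroblasts, endothelium and leukocytes, had 0 counts in all 11 High libraries. Other members of these lists were detected: PDGFRB had 92 to 207 counts, LYVE1 60 to 107, CD68 1378 to 2527 and LYZ, which encodes lysozyme, 22892 to 37697. The 9 leukocyte and macrophage genes summed to 1330 to 1500 CPM in the formulas and 1090 to 1230 in the herbs at High, and to 1150 to 1350 and 1220 to 1340 at Low. LYZ made up most of that sum and was higher in the formulas by 0.30 at High on the log2 scale (edgeR adjusted p = 5.23e-06). The part of these genes in the results below was not tested. Mitochondrial transcripts made up 20.9 ± 2.52% of counts in the formula libraries (SD, n = 5) and 17.7 ± 0.663% in the herb libraries (n = 6), with an exact two-sided permutation p = 0.00433. The share was also higher in the formulas at Medium (18.9% against 17.0%, exact permutation p = 0.0152), and at Low it was 19.7% against 17.7% (exact permutation p = 0.0866). PMT High replicate 2 had the highest share, 24.8%.

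At High, 1311 of 16284 genes (8.05%) differed between formulas and herbs at a Benjamini-Hochberg adjusted p under 0.05 in edgeR's quasi-likelihood test, 671 higher (4.12%) and 640 lower (3.93%) in the formulas. Only 112 of them (0.688%) differed by an absolute log2 of 0.5 or more, 83 higher and 29 lower. The same contrast called 43 genes (0.264%) at Medium and 10 genes (0.0614%) at Low. The change from Low to High itself differed between the sides for 280 genes (1.72%), 150 upward in the formulas relative to the herbs (0.921%) and 130 downward (0.798%). Without PMT High replicate 2, the genes called at High fell to 332 higher and 326 lower, and 621 of the original 1311 were kept.

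**Figure D1:**
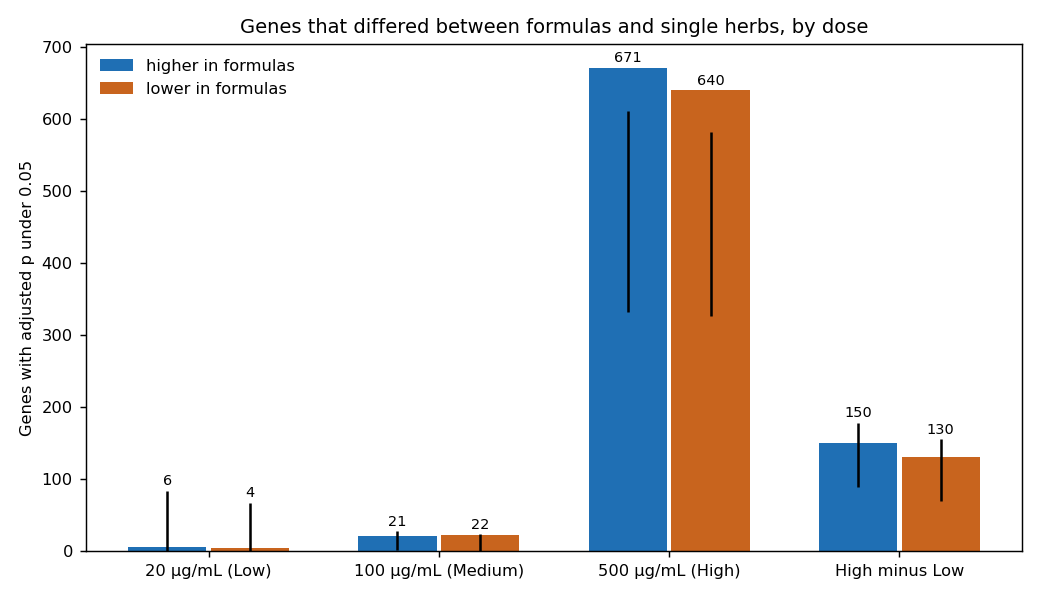
Number of genes that differed between the formulas and the single herbs at each dose and in the change from Low to High (bars, y axis in genes), with the range when each library was left out in turn (black lines). The High contrast called 671 and 640 genes against 6 and 4 at Low; its lines end below the bars because every leave-out lowered the count.

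Few genes passed the test between the extracts of 1 side. SDT and PMT at High differed for 0 genes (0.0%) in edgeR, with 865 genes at an unadjusted p under 0.05, and DESeq2 called 2. Atractylodis and ginseng at High differed for 13 genes (0.0798%), among them CYP1A1, TAGLN, UGT1A1 and SREBF1. A count of 0 does not show that SDT and PMT acted alike, since only 3 and 2 libraries were compared.

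Of the 1311 genes called at High, 241 (18.4%) were also called, in the same direction, in the comparison of dose changes. Another 2 were already called at Low in the same direction, and 1068 (81.5%) were in neither group. For these 1068, a difference that depended on dose cannot be told from an offset present at both doses. Among the 135 dose-dependent genes that were higher in the formulas, 102 fell with dose in the herbs with no call in the formulas, and 17 rose in the formulas with no call in the herbs. Among the 106 that were lower in the formulas, 62 rose with dose in the herbs alone by this rule and 24 fell in the formulas alone. The herbs changed more genes with dose, 2457 (15.1%) against 432 (2.65%) for the formulas, and the difference between these counts was not tested. Against vehicle, SDT, PMT, Atractylodis and ginseng at High differed for 34.2%, 29.2%, 34% and 36.3% of genes. By direction, 1.23% of genes rose and 1.42% fell with dose in the formulas, and 7.87% rose and 7.22% fell in the herbs; the shares of each gene list are to be read against these.

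The largest fall was in HAMP, with its BMP-responsive neighbours in function ID3, ID1, SMAD7 and ID2. In all of these the formula libraries fell from Low to High and the herb libraries did not change past the threshold. The promoter of HAMP is shown because this gene had the largest difference of the named genes. It is the 250 bases before the RefSeq start on GRCh38.p14, chr19:35282278-35282527, plus strand, read 5′ to 3′, with the GC-rich core GGCGCC that SMAD proteins can bind in capitals, at positions -105 to -100 from the start.

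HAMP: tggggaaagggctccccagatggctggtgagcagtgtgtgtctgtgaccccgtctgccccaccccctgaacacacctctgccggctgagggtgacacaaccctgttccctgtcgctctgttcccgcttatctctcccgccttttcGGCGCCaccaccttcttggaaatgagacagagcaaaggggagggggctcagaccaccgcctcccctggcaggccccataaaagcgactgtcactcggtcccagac

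GGCGCC, searched on both strands, occurred in 16.4% of 35116 RefSeq promoter windows of this length, and in 2 of the 15 named dose-dependent genes that had a window, HAMP and PTGR1. The match describes the sequence and was not tested as a binding site. This motif and the AhR core below were chosen after the changed genes were known. Of the planned motifs, the antioxidant response element TGACNNNGC occurred in 1 of the 15 genes, SMAD7, and in 10.9% of all windows. The heat shock element GAANNTTC occurred in 4, ID1, AKR1C2, AKR1C1 and PTGR1, and in 5.78% of windows. The metal response element TGCNCNC occurred in 9 (49.1% of windows) and the sterol regulatory element TCACNCCAC in 0 (0.883%). None was tested as a binding site.

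HAMP (ENSG00000105697, GRCh38 chr19:35280716-35285143, plus strand) is made by hepatocytes and limits iron export from cells. Its level at High was 0.454, 0.618 and 0.535 CPM in SDT, 0.612 and 0.559 in PMT, 5.50, 4.33 and 5.35 in Atractylodis and 4.66, 4.41 and 3.86 in ginseng. All 5 formula libraries lay below all 6 herb libraries (5.38% of genes had no overlap between the sides at High), by nearly an order of magnitude, while vehicle stood at 5.41 to 6.54 CPM. At Low the sides overlapped, with 3.50 to 5.66 CPM in the formulas and 3.57 to 5.83 in the herbs. The fitted difference was -3.05 ± 0.175 (log2 ± SE, edgeR adjusted p = 1.17e-17) at High, -0.82 at Medium (adjusted p = 0.00123) and -0.13 at Low (adjusted p = 0.694). With dose HAMP fell by 3.02 on the log2 scale in SDT and by 2.93 in PMT (edgeR adjusted p = 2.57e-12 and 5.3e-09). The change was -0.10 in Atractylodis and -0.01 in ginseng. Bulk RNA cannot tell fewer cells expressing HAMP from less HAMP RNA in each cell.

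The ID genes encode helix-loop-helix proteins that bind and block other transcription factors. ID3 (chr1:23557918-23559794) was at 4.77, 5.06 and 5.74 CPM in SDT, 5.33 and 5.40 in PMT, 16.6, 14.4 and 14.1 in Atractylodis and 17.3, 15.8 and 13.5 in ginseng. The sides did not overlap, and the 3 vehicle libraries (11.3 to 14.5 CPM) lay between them or within the herb range. ID3 differed by -1.54 ± 0.107 at High (edgeR adjusted p = 6.13e-15) and by -0.06 at Low (adjusted p = 0.835).

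ID1 (chr20:31605283-31606515) showed 38.7, 38.8 and 43.4 CPM in SDT, 41.0 and 51.7 in PMT, 98.9, 80.2 and 91.6 in Atractylodis and 96.4, 92.8 and 88.8 in ginseng. No formula library reached the lowest herb library. The difference was -1.08 ± 0.0755 at High (edgeR adjusted p = 7.89e-15) and -0.08 at Low (adjusted p = 0.676). ID2 (chr2:8678845-8684453) differed less, with 48.5 ± 3.73 CPM in the formulas (SD, n = 5) and 73.2 ± 5.36 in the herbs (n = 6), again without overlap. Its log2 difference was -0.59 at High (edgeR adjusted p = 3e-09) against 0.09 at Low (adjusted p = 0.599).

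SMAD7 (chr18:48919853-48952052), an inhibitor that SMAD signalling induces against itself, was at 4.62, 3.36 and 4.33 CPM in SDT, 4.85 and 4.4 in PMT, 7.59, 6.17 and 7.12 in Atractylodis and 5.48, 6.43 and 7.18 in ginseng. The gap between the sides was narrow but no library crossed it. The difference was -0.61 ± 0.0817 at High (edgeR adjusted p = 8.04e-07) and 0.00 at Low (adjusted p = 0.994). Without SDT the comparison of dose changes no longer passed for SMAD7 (-0.54, adjusted p = 0.128). The fall from Low to High was called in both formulas for HAMP, ID1, ID2, ID3 and SMAD7, and in neither herb.

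The list of 15 iron-handling genes, which shares HAMP, ID1 and SMAD7 with the paragraph above, had 13 tested members, of which 1 was higher and 4 were lower in the formulas. Its median log2 was -0.102, against 0.00403 over all 16284 genes, and -0.056 at Low. TFRC, the transferrin receptor that imports iron, was among the lower at -0.13 (edgeR adjusted p = 0.046), and TFR2, the hepatocyte iron sensor, was the higher at 0.17 (adjusted p = 0.025). Without PMT High replicate 2 the list held 0 higher and 3 lower. The TFR2 call was also lost without SDT High replicate 1 or 2, Atractylodis High replicate 2 or Ginseng High replicate 3.

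Of 10 AhR list genes 9 were tested, and 3 were higher and 1 was lower in the formulas at High, with a median log2 of 0.01. CYP1A1, ALDH3A1 and CYP1A2 were the higher ones, and NFE2L2, which encodes NRF2, was lower by 0.14 (edgeR adjusted p = 0.035), a call lost without any one of SDT High replicate 1 or 3, PMT High replicate 3, Atractylodis High replicate 1 or Ginseng High replicate 3. Without PMT High replicate 2 the list had 2 higher and 1 lower, with a median of -0.012. The CYP1A1 promoter is shown for its single AhR core, GCGTG, in capitals at -57 to -53. The window is chr15:74725529-74725778 of GRCh38.p14, minus strand, read 5′ to 3′.

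CYP1A1: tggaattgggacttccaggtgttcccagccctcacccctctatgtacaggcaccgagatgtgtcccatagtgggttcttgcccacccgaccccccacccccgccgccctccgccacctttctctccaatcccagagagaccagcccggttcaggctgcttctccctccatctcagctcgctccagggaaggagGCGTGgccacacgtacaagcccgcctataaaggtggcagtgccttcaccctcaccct

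GCGTG was common, in 32.2% of all promoter windows on either strand, and occurred in 5 of the 15 dose-dependent genes with a window: CYP1A1, ID3, ID1, SMAD7 and ID2. It was thus present in genes that differed in opposite directions.

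CYP1A1 (chr15:74719542-74725610, minus strand), a monooxygenase of polycyclic aromatic compounds, reached 53.8, 56.3 and 49.2 CPM in SDT and 62.3 and 63.1 in PMT. It was at 25.6, 19.8 and 20.3 CPM in Atractylodis and at 12.1, 12.7 and 12.3 in ginseng, with vehicle at 10.4 to 11.9. The order was thus PMT and SDT, then Atractylodis, then ginseng near vehicle. The difference between formulas and herbs was 1.81 ± 0.0822 at High (edgeR adjusted p = 4.7e-21), 1.10 at Medium (adjusted p = 1.95e-10) and 0.38 at Low (adjusted p = 0.11). With dose CYP1A1 rose by 2.12 in SDT, 2.18 in PMT and 1.04 in Atractylodis (edgeR adjusted p = 1.3e-17, 1.43e-14 and 1.06e-07), and the change of 0.41 in ginseng did not pass (adjusted p = 0.0626). Atractylodis exceeded ginseng at High by 0.82 (edgeR adjusted p = 0.000129), so the herb mean covered 2 unequal extracts.

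ALDH3A1 (chr17:19737984-19748943), an aldehyde dehydrogenase, was at 3.14, 3.13 and 3.85 CPM in SDT, 4.32 and 4.21 in PMT, 1.31, 0.902 and 1.3 in Atractylodis and 1.12, 1.15 and 1.15 in ginseng. Every formula library exceeded every herb library, and also the vehicle libraries at 1.22 to 1.94 CPM. The difference was 1.71 ± 0.138 at High (edgeR adjusted p = 9.78e-13) and 0.04 at Low (adjusted p = 0.949). CYP1A2 was near the lower end of detection, at 0.186 to 0.464 CPM in the formulas and 0 to 0.150 in the herbs. Its difference of 2.10 ± 0.514 (edgeR adjusted p = 0.00596) did not pass without PMT High replicate 2, and the dose comparison did not pass either (adjusted p = 0.318). CYP1A1 and CYP1A2 are close relatives and reads they share are split by estimation.

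**Figure D2:**
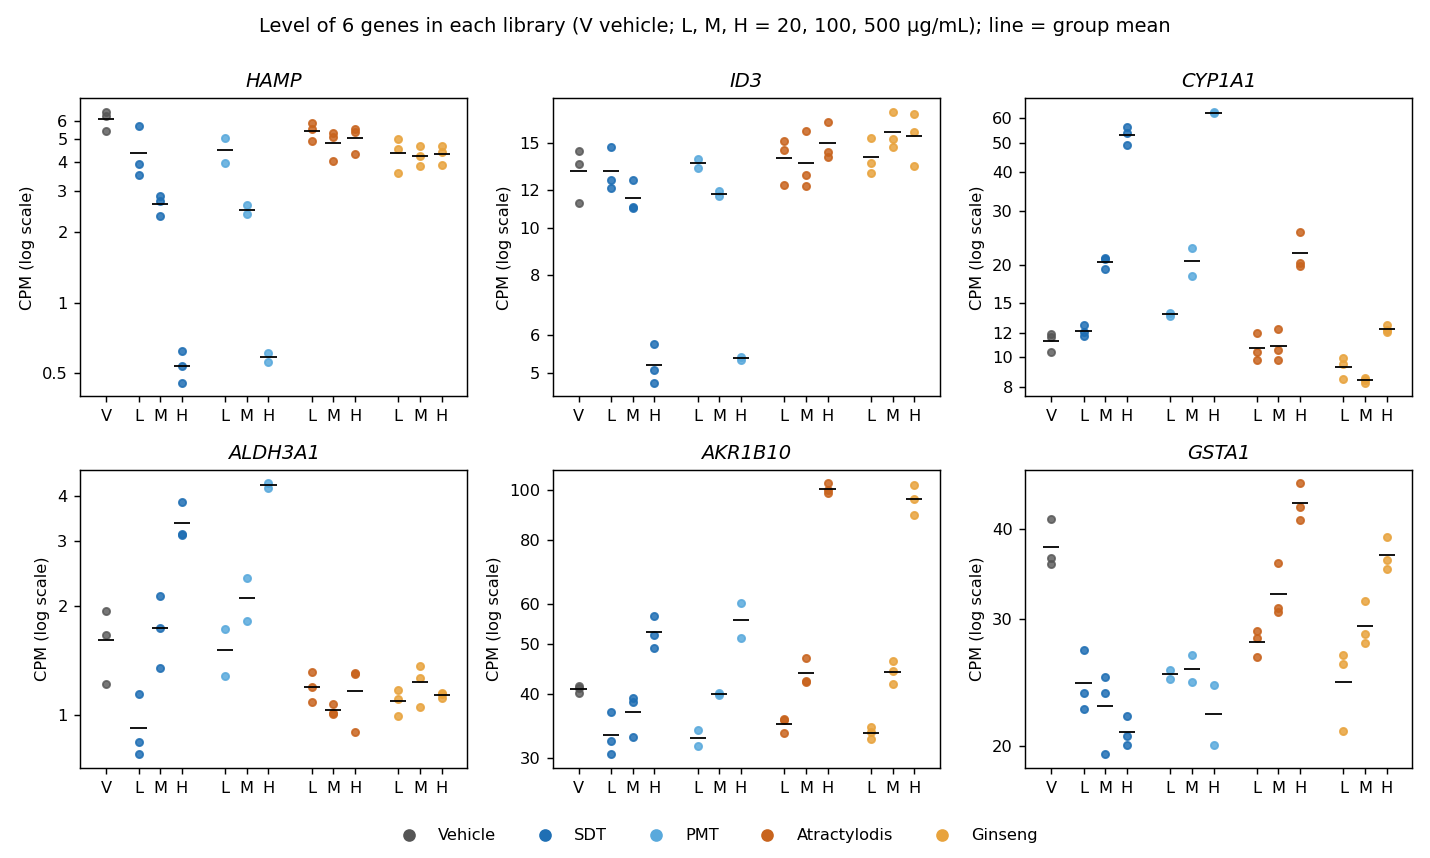
CPM of HAMP, ID3, CYP1A1, ALDH3A1, AKR1B10 and GSTA1 in each library (points, log scale) by extract and dose, with vehicle at the left and group means as lines. HAMP and ID3 fall with dose in SDT and PMT only among these 4 extracts, CYP1A1 climbs furthest in the formulas, and AKR1B10 and GSTA1 are higher in the herbs than in the formulas at High.

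Some enzymes of electrophile defence formed the third group. AKR1B10, AKR1C1 and AKR1C2, reductases of aldehydes, ketones and steroids, PTGR1, which reduces prostaglandins and alkenals, and GSTA1 and GSTA2, glutathione transferases, were all lower in the formulas at High. In all 6 the herbs rose from Low to High. The formulas rose less in AKR1B10, AKR1C1, AKR1C2 and PTGR1 and did not pass the threshold in GSTA1 and GSTA2. Of 9 aldo-keto reductases tested 3 were lower and AKR1D1 was higher (0.23, edgeR adjusted p = 0.000773), with a median log2 of -0.035. Of 13 glutathione transferases 3 were lower, GSTA1, GSTA2 and MGST1, and 2 were higher, GSTK1 (0.30) and MGST2 (0.19). At High 10 of the 13 were above 0, with a median of 0.054, and the median at Low was -0.072.

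AKR1B10 (chr7:134527592-134541408) was at 49.2, 52.1 and 56.9 CPM in SDT, 51.5 and 60.2 in PMT, 103, 98.8 and 100.0 in Atractylodis and 102.1, 89.3 and 96.1 in ginseng. All libraries of both sides exceeded vehicle (40.2 to 41.5 CPM), and the herbs exceeded the formulas without overlap. The difference was -0.86 ± 0.053 at High (edgeR adjusted p = 1.4e-16) and -0.05 at Low (adjusted p = 0.759). From Low to High AKR1B10 rose by 0.72 in the formulas and by 1.52 in the herbs (edgeR adjusted p = 7.06e-12 and 1.8e-26).

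AKR1C1 (chr10:4963253-4983283) was at 282.2, 299.5 and 301.9 CPM in SDT, 300.0 and 303.0 in PMT, 518.4, 490.2 and 500.3 in Atractylodis and 525.6, 499.1 and 533.1 in ginseng. At High the formulas were near vehicle (255.0 to 290.2 CPM), though they had risen from Low, and the herbs lay far above vehicle. The difference was -0.78 ± 0.0441 at High (edgeR adjusted p = 9.29e-18) and -0.03 at Low (adjusted p = 0.818). AKR1C2, its neighbour on chromosome 10, gave 180.2 ± 7.54 CPM in the formulas and 321.6 ± 11.8 in the herbs, a difference of -0.83 (edgeR adjusted p = 1.94e-19). The AKR1C genes are nearly identical in sequence, as are GSTA1 and GSTA2, so how their reads were divided is uncertain.

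GSTA1 (chr6:52791664-52803910) was at 20.1, 20.6 and 22.1 CPM in SDT, 20.1 and 24.3 in PMT, 46.2, 42.9 and 41.1 in Atractylodis and 35.2, 39.0 and 36.3 in ginseng. Vehicle lay within the herb range, at 35.8 to 41.2 CPM, and the formulas lay below both. At Low both sides were below vehicle, with 24.7 ± 1.76 CPM in the formulas and 26.2 ± 2.79 in the herbs. The difference was -0.89 ± 0.0677 at High (edgeR adjusted p = 1.35e-13) and -0.08 at Low (adjusted p = 0.682). GSTA2 differed by -0.60 and PTGR1 by -0.56 at High (edgeR adjusted p = 9.37e-10 and 5.04e-13), and at Low by -0.07 and 0.03.

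**Figure D3:**
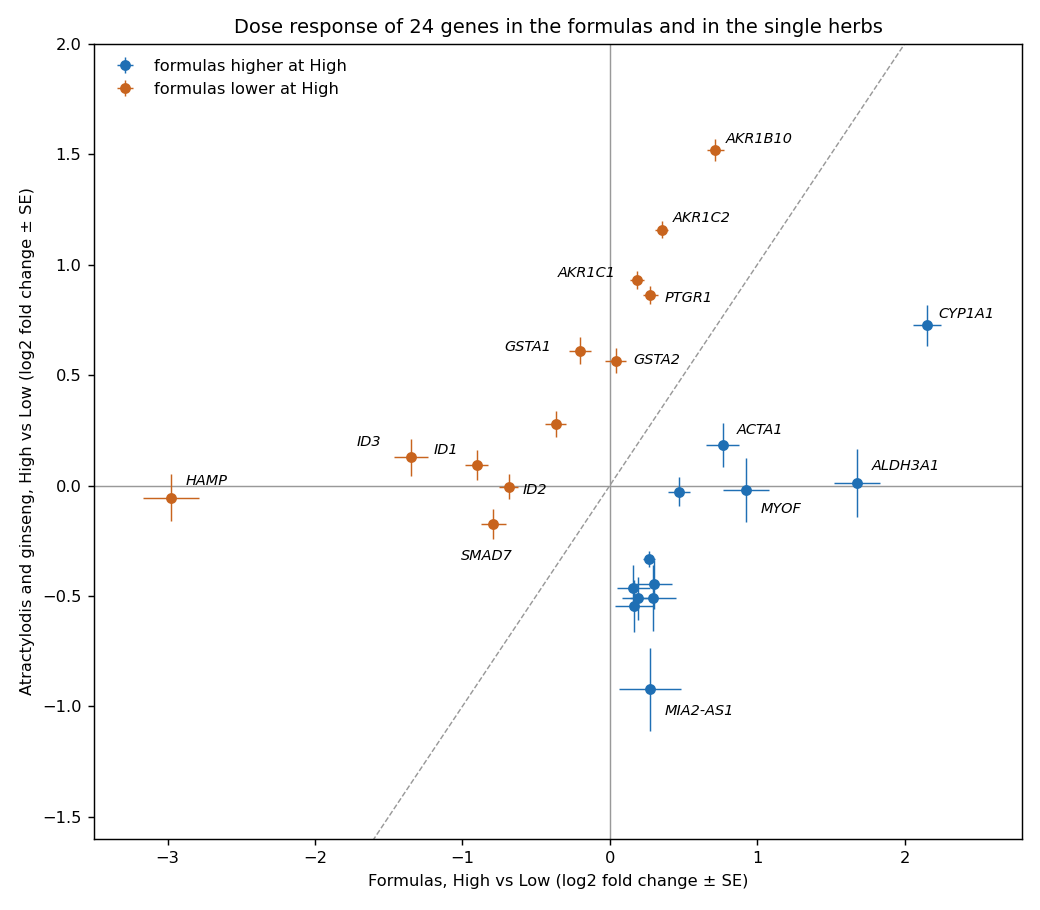
Log2 change from Low to High in the formulas (x axis) and in Atractylodis and ginseng (y axis), ± SE, for the 24 named dose-dependent genes; the dashed line marks equal change. HAMP, ID1, ID2, ID3 and SMAD7 lie left of zero with herb changes near 0, and AKR1B10, AKR1C1, AKR1C2 and PTGR1 lie above the line.

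The wider NRF2 list held smaller differences. Of 23 tested members 12 were lower and 0 higher in the formulas at High, with a median log2 of -0.146 against 0.00403 over all genes, and -0.011 at Low. At an unadjusted p under 0.05 edgeR gave 19 lower and 1 higher at High and 1 lower at Low, and DESeq2 called 12 lower at High and none at Low. With dose, 17 members rose in the formulas and 20 in the herbs, with medians of 0.209 and 0.358. Those called at High included TXNRD1, thioredoxin reductase (-0.29, edgeR adjusted p = 9.9e-07), GSR, glutathione reductase (-0.24), GCLC, the catalytic subunit of glutathione synthesis (-0.23), and UGDH, which supplies UDP-glucuronate (-0.23). NQO1 and GCLM, often used as NRF2 reporters, differed by only -0.13 and -0.20. The list had 11 lower calls without PMT High replicate 2, and NQO1 lost its call there and without Atractylodis High replicate 1. The GCLM call was lost without PMT High replicate 3.

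**Figure D4:**
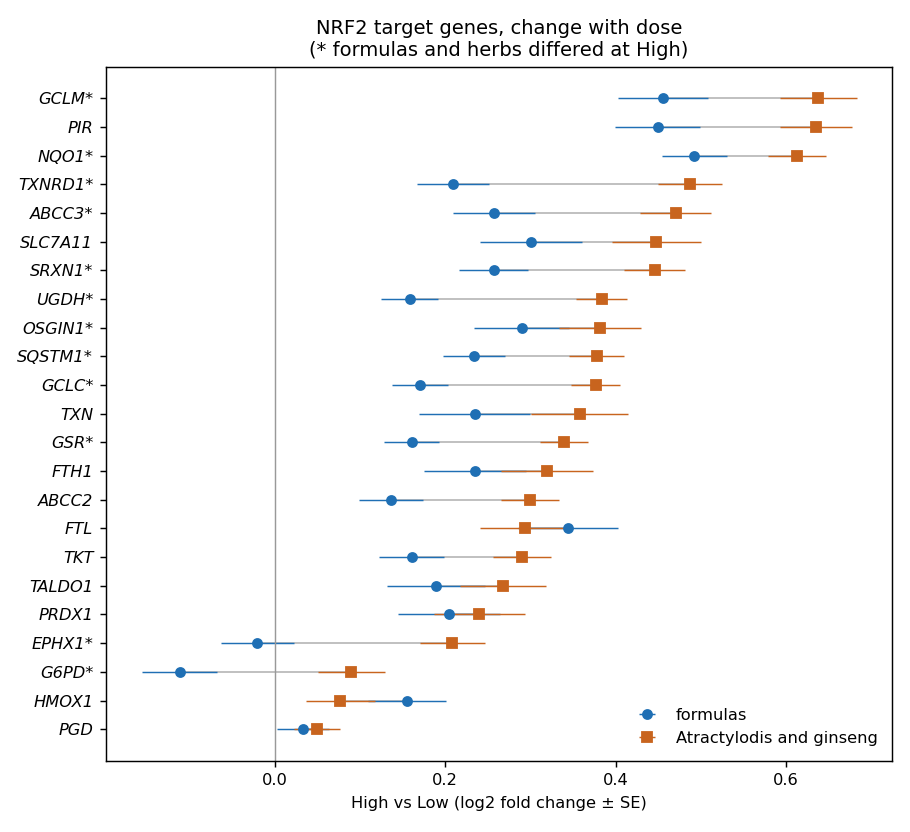
Log2 change from Low to High (x axis, ± SE) of the 23 tested NRF2 list genes in the formulas (circles) and in Atractylodis and ginseng (squares), with an asterisk on the 12 that differed at High. Herb values lie to the right for all but FTL and HMOX1.

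Heat shock chaperones and the proteasome, which guard protein folding and turnover, also rose with dose in the herbs. Of 20 chaperone genes 11 rose in the herbs. In the formulas 0 passed in edgeR or DESeq2, with 2 upward and 1 downward at an unadjusted p under 0.05. At High 3 were lower in the formulas: HSP90AB1, FKBP4 and CHORDC1, by 0.11 to 0.14. The HSP90AB1 and FKBP4 calls were lost without PMT High replicate 2, and that of FKBP4 also without PMT High replicate 3. The CHORDC1 call was lost without any one of SDT High replicate 1, 2 or 3, PMT High replicate 3, Atractylodis High replicate 2 or 3, or Ginseng High replicate 1 or 3. Of 30 proteasome genes 17 rose with dose in the herbs and 2 in the formulas. In the formulas DESeq2 called 4 upward, and 17 were upward at an unadjusted p under 0.05 in edgeR. The median change with dose was 0.107 in the formulas and 0.148 in the herbs. The lower calls at High in both lists are to be read against 3.93% of all genes called lower and 8.05% in either direction. At High PSMA3 and PSMD3, 2 of the 30 proteasome genes, were lower in the formulas. Both calls were lost without PMT High replicate 2, and that of PSMA3 also without any one of SDT High replicate 1 or 3, Atractylodis High replicate 2 or Ginseng High replicate 1. The unfolded protein response list (18 tested) and the hypoxia and glycolysis list (27 tested) had 0 calls at High in edgeR and in DESeq2, with 4 and 3 genes at an unadjusted p under 0.05 in edgeR.

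Secreted liver proteins included 6 genes higher and 1 lower in the formulas at High. Of 23 tested members of the hepatocyte secreted list, with a median log2 of 0.079, 13 fell with dose in the herbs against 3 in the formulas. In the formulas 8 were downward at an unadjusted p under 0.05 in edgeR. At Low 0 of the 23 were called, with 1 higher and 5 lower at an unadjusted p under 0.05 in edgeR. The median change with dose was -0.074 in the formulas and -0.144 in the herbs. PLG, plasminogen, was at 81.3 ± 4.10 CPM in the formulas and 65.9 ± 5.36 in the herbs (0.29, edgeR adjusted p = 8.2e-06), and vehicle was near the herbs at 67.5 ± 3.2. APOC3 (0.37), VTN (0.27) and SERPIND1 (0.18) were also higher, and SERPINC1, antithrombin, was lower (-0.16). Among 15 acute phase proteins 0 were called at Low, with 4 higher at an unadjusted p under 0.05 in edgeR. At High 4 were called higher, led by SERPINA3 at 0.60 (edgeR adjusted p = 7.8e-11). SERPINA3, alpha-1-antichymotrypsin, ranged from 208.9 to 273.1 CPM in the formulas and from 135.5 to 161.1 in the herbs. Its level at Low was similar on both sides (0.03), and it rose with dose in the formulas by 0.26 and fell by 0.30 in the herbs. Without PMT High replicate 2 the secreted list had 4 higher and the acute phase list 1.

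FABP1, the liver fatty acid carrier, and UBD, an inducible ubiquitin-like protein of the interferon list, followed this order. FABP1 was at 359.3 ± 46.2 CPM in the formulas and 232.0 ± 32.4 in the herbs (0.61, edgeR adjusted p = 7.3e-05), and UBD at 63.1 ± 3.07 and 43.6 ± 3.58 (0.53, adjusted p = 8.6e-09). Neither overlapped between the sides. Of 17 interferon genes 5 were higher in the formulas, among them IFIT1 (0.49), and 3 without PMT High replicate 2. At Low 0 of the 17 were called, with 2 lower at an unadjusted p under 0.05 in edgeR.

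Lipid and bile acid lists held calls in both directions, to be read against 8.05% of all genes. Of 23 cholesterol genes 3 were higher and 1 was lower at High, and 21 fell with dose in the herbs and 8 in the formulas. In the formulas DESeq2 called 10 downward, and 21 were downward at an unadjusted p under 0.05 in edgeR. The median change with dose was -0.128 in the formulas and -0.19 in the herbs, so the list fell on both sides. The cholesterol list had 2 higher and 1 lower without PMT High replicate 2. Of 18 genes of fatty acid and triglyceride synthesis 0 were called at Low, with 3 lower at an unadjusted p under 0.05 in edgeR. At High 2 were called lower. FASN, fatty acid synthase, and SREBF1, its regulator, were both lower in the formulas by 0.29 (edgeR adjusted p = 8.2e-06 and 3.5e-05). SREBF1 also differed between Atractylodis and ginseng. Without Atractylodis its difference was -0.12 and did not pass (edgeR adjusted p = 0.256). Of 8 bile acid genes tested 0 were called at Low, with 2 higher at an unadjusted p under 0.05 in edgeR. At High 2 were called higher and 2 lower. CYP7A1 and CYP8B1, enzymes of bile acid synthesis, were higher (0.47 and 0.45), and the bile acid receptor gene NR1H4 and the exporter subunit SLC51B were lower (-0.24 and -0.50). ARG1, arginase, was lower by 0.68 (edgeR adjusted p = 0.0012), at 6.11 ± 0.713 CPM in the formulas and 9.92 ± 1.80 in the herbs. Metallothionein genes fell with dose on both sides, 7 of 9 tested in each, and only MT1G differed at High (-0.29, edgeR adjusted p = 0.04). The MT1G call was lost without any one of SDT High replicate 1, PMT High replicate 2 or 3, Atractylodis High replicate 1 or 3, or Ginseng High replicate 2 or 3.

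Of 13 tested genes of the YAP, TGF-beta and cytoskeletal list 0 were called at Low. There 2 were higher at an unadjusted p under 0.05 in edgeR. At High the list had 3 higher and 2 lower, with a median log2 of 0.025. TAGLN, TPM1 (0.22) and CCN2 (0.18) were higher, and SMAD7 and ACTG1, a cytoplasmic actin (-0.13, edgeR adjusted p = 0.0106), were lower. The CCN2 call was lost without any one of SDT High replicate 1 or 3, PMT High replicate 2 or 3, Atractylodis High replicate 1 or 2, or Ginseng High replicate 3, and the list had 2 higher and 1 lower without PMT High replicate 2. TAGLN (chr11:117199321-117204782), an actin-binding protein of contractile cells, was at 23.6, 23.6 and 24.2 CPM in SDT, 23.9 and 23.1 in PMT, 13.3, 10.6 and 13.1 in Atractylodis and 18.1, 16.5 and 18.7 in ginseng. The formulas were tightly grouped above vehicle (15.1 to 17.1 CPM), and Atractylodis was the lowest. The difference was 0.68 ± 0.0667 at High (edgeR adjusted p = 3.66e-10) and 0.18 at Low (adjusted p = 0.287). MYOF, myoferlin, rose in both formulas and not in the herbs, from 1.55 to 2.10 CPM at Low to 2.58 to 3.90 at High in the formulas (0.98 at High, edgeR adjusted p = 4.42e-06). ACTA1, skeletal muscle actin, was at 6.19 to 6.51 CPM in the formulas and 2.92 to 4.95 in the herbs (0.67, adjusted p = 6.85e-06), and it may share reads with other actin genes. The comparison of dose changes for TAGLN did not pass without SDT (0.41, edgeR adjusted p = 0.202) or without Atractylodis (0.33, adjusted p = 0.256). The comparison of dose changes for MYOF and ACTA1 did not pass when SDT, PMT or Atractylodis was left out, and that for MYOF also not without ginseng. For ACTA1 it also failed without any one of PMT High replicate 2 or 3, Atractylodis High replicate 2, Ginseng High replicate 1, PMT Low replicate 2, Atractylodis Low replicate 1 or Ginseng Low replicate 3. Of 4 fibroblast and stellate markers tested, ACTA2 and RGS5 were called higher in the formulas. COL1A1 and PDGFRB were lower without a call, and COL1A2 and POSTN were at 0. The RGS5 call did not pass in DESeq2 (adjusted p = 0.0936) and was lost without any one of SDT High replicate 1 or 2, PMT High replicate 3, Atractylodis High replicate 2 or 3, or Ginseng High replicate 1 or 2. The fibroblast list summed to 69.2 to 71.8 CPM in the formulas and 58.9 to 64.6 in the herbs at High. At Low the sums were 71.4 to 75.1 and 70.8 to 77.3 CPM.

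The remaining named dose-dependent genes were low or poorly described. KRTAP3-1, ANGPTL1, TFF3, LINC02413 and MIA2-AS1 were higher in the formulas by 0.66 to 0.95, all with levels below 10 CPM, and all 5 fell with dose in the herbs. The dose comparison was lost without PMT High replicate 2 for KRTAP3-1, ANGPTL1, MIA2-AS1 and ENSG00000253196, and for KRTAP3-1 without any one of 10 further libraries. It was also lost without PMT Low replicate 2 or Atractylodis Low replicate 2 for ANGPTL1, without PMT Low replicate 3 for MIA2-AS1, and without Ginseng High replicate 2 or PMT Low replicate 3 for ENSG00000253196. The MIA2-AS1 difference at High did not pass without PMT High replicate 2 either (0.72, edgeR adjusted p = 0.0656). ENSG00000253196 and ENSG00000273259 differed by 0.65 and 0.64. MIA2-AS1 is antisense to another gene and the strand setting of the counting is not stated, so its reads cannot be assigned with certainty. ZNF114, a zinc finger gene, was lower by 0.54, having decreased by 0.37 in the formulas and risen by 0.28 in the herbs.

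A difference already present at Low was found in PALMD, which encodes palmdelphin. PALMD (chr1:99645943-99694541) was higher in the formulas by 0.20 at High and 0.23 at Low (edgeR adjusted p = 0.00123 and 0.0197), without overlap at either dose (1.06% of genes had no overlap at Low). It did not change with dose past the threshold on either side (0.02 in the formulas and 0.05 in the herbs). GATD1 was the other gene called at both doses, lower by 0.14 at High, but its libraries overlapped. No gene was called at Low by edgeR without any one of SDT Low replicate 3, PMT Low replicate 2 or 3, Atractylodis Low replicate 2 or 3, or Ginseng Low replicate 1 or 2, with 1405 to 1847 genes at an unadjusted p under 0.05. The remaining 8 genes called at Low, among them HSPA8 and MC1R, were not called at High in the same direction.

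Transcripts of the mitochondrial genome were higher in the formulas at High, and none of these calls passed without PMT High replicate 2. All 13 were above 0 in the contrast and 12 were called higher in the formulas, with a median of 0.401 at High, 0.249 at Medium and 0.248 at Low, where 0 were called by edgeR or DESeq2 and 7 had an unadjusted p under 0.05. MT-CYB, cytochrome b, differed by 0.40 (adjusted p = 0.0025) and MT-ND4 by 0.40 (adjusted p = 0.0098), both with overlapping libraries. With that library left out the count was 0, the median 0.196 and the difference in share 2.22 percentage points. The MT-CO1, MT-ND3, MT-ATP8 and MT-ND1 calls were each lost also without SDT High replicate 1, Atractylodis High replicate 3 or Ginseng High replicate 3, among others. The 31 nuclear genes of oxidative phosphorylation had 0 calls in edgeR and DESeq2, 5 at an unadjusted p under 0.05 in edgeR, and a median of 0.017.

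**Figure D5:**
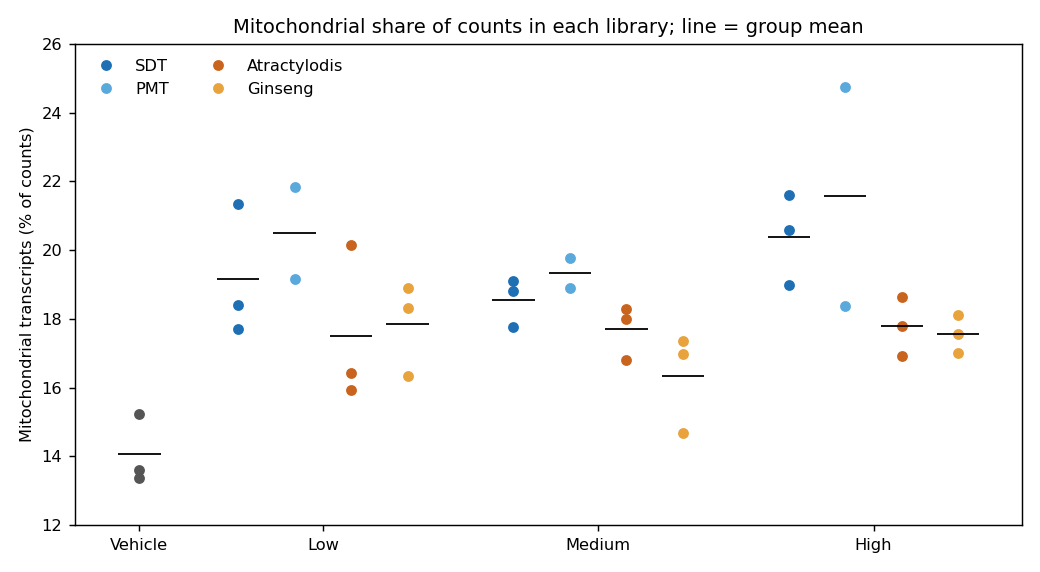
Share of counts from mitochondrial genes (y axis, percent, not starting at 0) in each library of vehicle and the 4 extracts at Low, Medium and High, with group means as lines. PMT High replicate 2, at 24.8%, is the highest point; the other formula libraries at High lie between 18.4% and 21.6%.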

How the data were processed

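Polyadenylated RNA of HepG2 cells was sequenced as 100 bp paired reads from directional libraries, per the labels' protocols. Per the submitters' processing notes, FastQC 0.11.9, Trim Galore 0.6.5, STAR 2.7.3a and RSEM 1.3.3 were used with GRCh38. The authors deposited gene-level expected counts, not normalised; 23.37% of nonzero values were not whole (tolerance 0.005). The annotation release and strand setting are not given in the sources used here. The table's other 210 columns of samples were not used.

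Expected counts were rounded. Of 60675 genes, 16284 passed filterByExpr in edgeR 4.0.16 (R 4.3.3), which was fitted with TMM scaling and 1 coefficient per group to 54 libraries of 19 groups; groups of 1 library were left out. Contrasts weighted the 2 extracts of a side equally and were tested with the quasi-likelihood F-test and Benjamini-Hochberg adjustment over all genes. CPM are on TMM-scaled library sizes. Library totals ran from 19057230 to 33233215 and the common replicate coefficient of variation was 5.63%. The mitochondrial share was compared by an exact permutation test over libraries. Gene positions are from GENCODE 29 and promoters from RefSeq GRCh38.p14. Scripts were tested on simulated data. DESeq2 1.42.0, other filters and scalings, and leave-outs were tried as alternatives.

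The members and gene lists were chosen with earlier results of these data known. Named were the 12 genes per direction with the largest difference at High that were also called in the dose comparison, had no overlap between sides and reached 1 CPM; genes meeting the same conditions at High and Low; up to 4 called genes per list; and AKR1B10, NQO1, GCLM and the mitochondrial genes. ACTG1, FTL, GATD1, HMOX1, HSPA8, MC1R, MGST2, SERPINC1, SERPIND1, TFRC, UGDH and marker genes given by their counts fall outside this rule and were chosen after their values were seen.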

Additional observations from a re-analysis of the deposited data

Results flagged for a closer look

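In 1 of 54 tests of a library standing apart from its side, AKR1C1 in SDT High replicate 1 (282.2 CPM) lay below the other 4 formula libraries by Dixon's test; chance gives about 1 in 20 such results.

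In edgeR's test of the difference, the change from Low to High differed between formulas and herbs for 280 genes. Given here are the 24 named dose-dependent genes, the 12 per direction with the largest difference at High under the naming rule. The difference in change (log2, formulas minus herbs) was negative for HAMP (-2.92), ID3 (-1.48), ID1 (-1.0), ID2 (-0.68) and SMAD7 (-0.61) of the BMP-responsive genes. It was also negative for GSTA1 (-0.81), AKR1C2 (-0.81), AKR1B10 (-0.80), AKR1C1 (-0.75), PTGR1 (-0.59), GSTA2 (-0.53) and ZNF114 (-0.65). It was positive for ALDH3A1 (1.67), CYP1A1 (1.43), MIA2-AS1 (1.2), MYOF (0.94), KRTAP3-1 (0.80), TFF3 (0.75) and ENSG00000253196 (0.71). The smaller positive values were those of LINC02413 (0.70), ANGPTL1 (0.62), ENSG00000273259 (0.60), ACTA1 (0.58) and TAGLN (0.50).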

How the results depend on the processing

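HAMP, ID1, ID2, ID3, CYP1A1, ALDH3A1, AKR1B10, AKR1C1, AKR1C2, GSTA1, GSTA2 and PTGR1 kept direction and call, at High and in the dose comparison, under every alternative run, including each library or extract left out. Leaving out 1 library gave 332 to 611 genes higher and 326 to 582 lower at High, 1 to 27 and 0 to 23 at Medium, 0 to 83 and 0 to 67 at Low, and 89 to 178 and 69 to 155 in the dose comparison. The upper ends at Low came without Atractylodis Low replicate 1. It gave 0 for SDT against PMT, 5 to 11 (of 13) for Atractylodis against ginseng, and 2.22 to 3.81 points for the mitochondrial share.

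Without SDT, PMT, Atractylodis or ginseng the genes called at High were 281, 453, 372 and 445 higher and 221, 372, 383 and 351 lower; without PMT 707 of the 1311 were kept. Without SDT, PMT, Atractylodis or ginseng the dose comparison gave 16, 81, 59 and 50 higher and 28, 59, 34 and 55 lower, and Low gave 3, 0, 0 and 1 higher and 0 lower each. With no filter on low counts the numbers were 244 and 132 (dose comparison), 147 and 227 (Medium), 129 and 184 (Low), 123 (SDT against PMT) and 103 (Atractylodis against ginseng). DESeq2 gave 46 and 61 at Medium, 39 and 33 at Low and 2 for SDT against PMT. With only the compared groups fitted, Medium gave 7 and 6, Low 0 and 1, SDT against PMT 4 and Atractylodis against ginseng 3. Deviations from the group mean correlated above 0.1 in 1 of 15 same-numbered pairs of libraries at High, against 7 of 30 other pairs. The counts were 0 of 15 against 4 of 30 at Medium, and 3 of 15 against 4 of 30 at Low. With 2 or 3 libraries per group, these correlations cannot show whether replicate numbers paired the samples. A replicate block gave 35 and 29 at Medium, 11 and 5 at Low, 1 for SDT against PMT and 1335 in all at High.

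With the mitochondrial share as a covariate, added after seeing the data, Low gave 1 and 1, and High gave 1111 genes (690 of the 1311). MT-ATP6 (-0.003619), MT-CO1 (-0.0289), MT-ND1 (-0.02595) and MT-ND2 (-0.02084) reversed in sign, at values near 0 that did not pass. The covariate is the share of counts from the mitochondrial genes themselves, so the fit takes up most of their difference by construction. The cause of the changes in other genes was not tested. Depth limits CYP1A2 and other genes below 1 CPM.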

Other observations

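The other single-herb ethanol extracts with 3 libraries, Poria and Glycyrrhiza at 500 µg/mL, gave these values beside the 4 extracts compared above. HAMP was at 0.697 ± 0.308 CPM with Poria (SD, n = 3), near the formulas at 0.556 ± 0.0667 (n = 5), and at 16.9 ± 0.983 with Glycyrrhiza (n = 3), above vehicle at 6.06 ± 0.588 (n = 3). CYP1A1 was at 42.9 ± 10.7 CPM with Poria and 1168 ± 43.4 with Glycyrrhiza. AKR1B10 was at 258.4 ± 5.84 CPM with Poria and 249.1 ± 9.29 with Glycyrrhiza, above Atractylodis and ginseng at 98.2 ± 5.04 (n = 6). GSTA1, in contrast, was at 17.2 ± 0.711 CPM with Poria and 17.7 ± 0.947 with Glycyrrhiza, below the formulas at 21.4 ± 1.80. These levels were not tested against each other.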
